A study of Homo sapiens with 12 samples.

Results

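The comparison described here is that of MyLa cells treated with afatinib dimaleate alone and MyLa cells treated with solvent (DMSO) alone. MyLa is an established cell line of cutaneous T cell lymphoma (CTCL). Its members are the 3 libraries labelled afatinib dimaleate and the 3 labelled DMSO, chosen by their labels, 6 of the 12 libraries of the series. All cells grew in RPMI medium with fetal bovine serum and 20 ng/mL interleukin-2 (IL-2). Afatinib was given at 5.7 uM for 24 h, and the DMSO libraries received the volume of DMSO used for the drug combination. Romidepsin at 3.2 nM, an inhibitor of histone deacetylases, was used alone in another group and enters below as a direct comparison. Whether the replicates of a treatment were grown as separate cultures is not given in the labels. The p-values therefore cover the spread among libraries alone, which may be technical. Everything comes from 1 cell line, and the values are counts of read pairs per gene from bulk RNA.

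Afatinib binds a cysteine at the ATP site of the ErbB receptor kinases (EGFR, HER2 and HER4, encoded by EGFR, ERBB2 and ERBB4) and blocks them irreversibly. A few other kinases, among them the cytokine receptor kinase JAK3, carry a cysteine at the matching position. In T cells that depend on IL-2, JAK3 passes the cytokine signal to STAT5. Several gene programs described below have textbook regulators. ATF4 drives genes of amino acid supply when translation initiation is slowed by phosphorylation of eIF2 alpha. NRF2 (NFE2L2) drives genes against oxidants, TFEB and TFE3 drive lysosomal genes, and SREBP2 (SREBF2) drives cholesterol synthesis.

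The target receptor was nearly absent. EGFR had 8, 7 and 5 read pairs in the DMSO libraries and 5, 6 and 10 in the afatinib libraries, too few to pass the filter on low counts. ERBB3 had 2 to 8 read pairs per library and ERBB4 had 0 in 5 of the 6 libraries and 3 in the last. In CPM, the read count scaled to library size, ERBB2 was at 3.59, 5.35 and 6.04 in the DMSO libraries and 10.3, 11.1 and 11.9 in the afatinib libraries, without overlap, and rose (log2 fold change 1.16, SE 0.19, adjusted p = 9.93e-07). Of the ligands, BTC, NRG1, NRG2 and NRG3 had no read in any of the 6 libraries. HBEGF (log2 fold change 0.77, adjusted p = 0.02) and TGFA (0.62, adjusted p = 0.0435) rose from low levels. Of the kinases with the matching cysteine, BTK and BMX had no read. JAK3 was counted at 249, 235 and 276 CPM with DMSO and 201, 207 and 194 CPM with afatinib and fell (log2 fold change -0.34, SE 0.06, adjusted p = 6.01e-06). MAP2K7, a kinase upstream of JNK, fell by 0.34 on the log2 scale. BLK, TEC and TXK did not pass the test. Leaving out the 4 libraries of the series that hold most KRT5 reads (afatinib 3, DMSO 1, DMSO 2 and combination 1), which leaves 1 DMSO library, gave 1 higher and 1 lower among the 10 tested genes, and turned their median from 0.08 to -0.15.

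T cell markers were present in part. IL2RA, the alpha chain of the IL-2 receptor, stood at 1225 ± 22.9 CPM (mean ± SD, n = 3) with DMSO and 835 ± 8.51 CPM with afatinib. CD3D, CD3G, CD247, TRAC, TRBC2, CD2 and CD8A were all counted in every library. CD4 and CD28 had no read in the 6 libraries. CD3E and CD7 had 2 read pairs each, both in afatinib library 3, and CD5 had 0 to 3. Of 9 tested T cell markers, 6 fell and 1 rose: CD2 (log2 fold change -0.94), TRAC (-0.90), PTPRC (-0.61), IL2RA (-0.55), TRBC2 (-0.41) and CD3G (-0.36) were lower, and CD8A was higher (0.74). CD3D and CD247 did not pass the test. In bulk RNA, fewer cells of a type and less RNA per cell cannot be told apart.

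Reads of the basal keratins KRT5 and KRT14 were concentrated in 3 of the 6 libraries, which with combination library 1 are called keratin libraries here. KRT5 had 59 read pairs in DMSO library 1, 94 in DMSO library 2 and 126 in afatinib library 3. It had 1 in DMSO library 3 and 0 in afatinib libraries 1 and 2. KRT14, its usual partner, followed with 15, 22 and 39 read pairs in the same 3 libraries and 0 in the other 3. KRT17, another epithelial keratin, was counted in every library, with 44, 48 and 20 read pairs with DMSO and 33, 34 and 61 with afatinib. As CPM, KRT5 was at 4.92, 9.49 and 0.0876 in the DMSO libraries and 0, 0 and 10.1 in the afatinib libraries, so both groups span from near 0 to their highest value. KRT5, KRT14 and PKP1 did not pass the test. Of the keratinocyte differentiation genes, KRT1, DSG1, IVL, S100A7, S100A8 and KRTDAP had no read in any of the 6 libraries, whereas KRT10, the usual partner of KRT1, had 442 to 957 in every one. The 25 keratinocyte markers were summed and scaled by total counts alone. Their sum was 249.7 to 304 CPM with DMSO and 267 to 294 CPM with afatinib (exact permutation test, two-sided, p = 0.8). Most of that sum came from TP63, SFN and KRT10, which were counted in every library. SFN had 2189, 1882 and 1818 read pairs with DMSO and fewer with afatinib (1441, 1318 and 1511), opposite to KRT10. The test of the sum therefore does not show that its members were unchanged. KRT10 was at 39.4, 46.7 and 38.7 CPM with DMSO and 88.2, 63.8 and 75.2 CPM with afatinib, high also in the afatinib libraries without KRT5, and passed the test (log2 fold change 0.87, SE 0.09, adjusted p = 2.22e-11). The part of the keratin reads in other results was not tested beyond leaving those libraries out. That run keeps DMSO library 3 as the only control, the DMSO library with the highest mitochondrial share (14.8%).

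**Figure D1:**
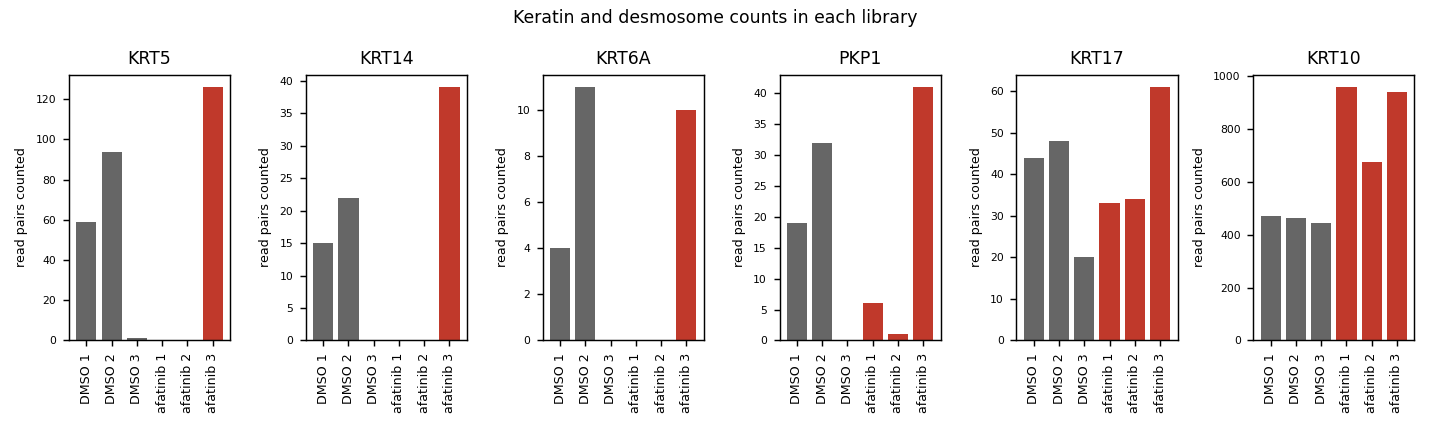
Read pairs counted (vertical axis, linear, own scale per panel) for 6 keratinocyte genes in each DMSO library (grey bars) and afatinib library (red bars). KRT5 reaches 59, 94 and 126 in DMSO libraries 1 and 2 and afatinib library 3 and is 0 or 1 in the other 3 libraries, whereas KRT10 is higher in all 3 afatinib libraries.

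Afatinib moved nearly as many genes up as down, but the large changes were mostly increases. Of 16208 genes tested, out of 59050 names in the table, 3571 were higher (22.0%) and 3780 lower (23.3%) with afatinib at an adjusted p below 0.05, 45.4% in all. By at least 2-fold, 1031 genes were higher (6.36%) and 412 lower (2.54%). The groups did not overlap in 8541 of the 16208 tested genes, among them 6930 of the 7351 called genes. Among genes with a mean of at least 5 CPM, 370 rose and 144 fell at least 2-fold. The DMSO libraries held 10246436 to 12458644 counted read pairs and the afatinib libraries 10274256 to 12039260. Mitochondrial transcripts made up 12.2%, 11.7% and 14.8% of the counts in the DMSO libraries and 10.8%, 10.7% and 11.04% in the afatinib libraries (exact permutation test, two-sided, p = 0.1, the smallest that 3 against 3 allows). DMSO library 3, with the highest mitochondrial share, stood apart from the other DMSO libraries. The counts scaled by library size alone, with no correction for composition, shifted the median gene by 0.10 on the log2 scale and put 62.2% of the calls on the higher side, against 48.6% here.

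**Figure D2:**
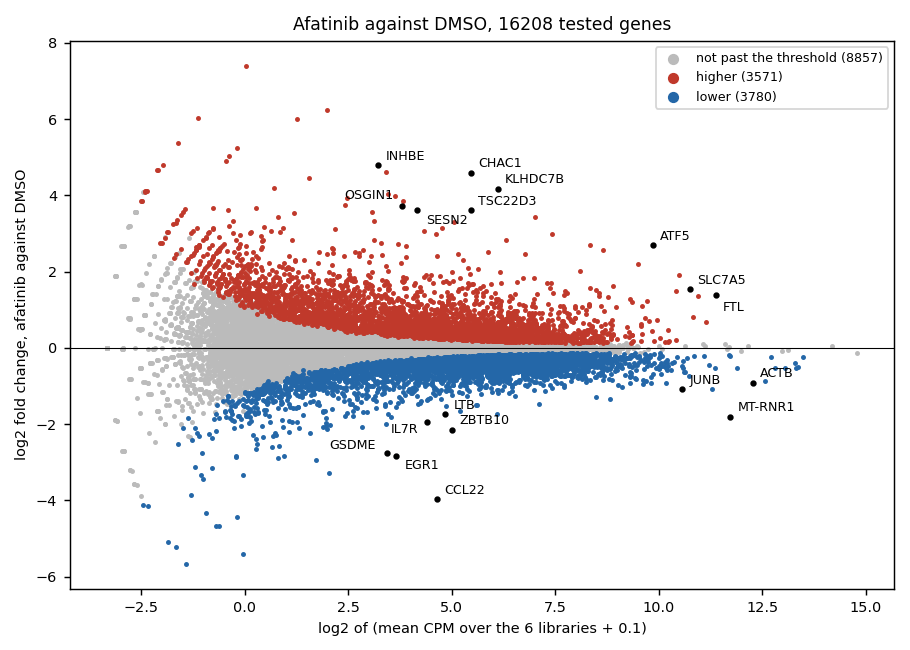
Log2 fold change of afatinib against DMSO (vertical axis) against the log2 of mean CPM over the 6 libraries plus 0.1 (horizontal axis) for the 16208 tested genes, each a point. The 3571 higher genes (red) reach larger changes than the 3780 lower genes (blue), with CHAC1 at 4.59 and CCL22 at -3.97.

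Calls differed with the DMSO level of the gene, with its span and with its exon length. Of 5 groups of tested genes split by DMSO level, the highest (median 130 CPM) had 20.0% higher and 49.7% lower. The lowest (median 0.728 CPM) had 18.1% higher and 2.59% lower. The gene lists below were not matched by level. The 11902 protein-coding genes were split into 5 groups of equal size by the length of the gene on the chromosome. The median DMSO level was 20.4 to 32.2 CPM in these groups. The group with the shortest span (median 5.52 kb) had 17.6% higher and 34.4% lower. The group with the longest span (median 158 kb) had 28.6% higher and 18.02% lower. The 3 groups between them followed in order, with 21.0%, 22.7% and 25.3% higher. Exon length grew with span, from a median of 2.69 kb in the shortest group to 8.61 kb in the longest. Split by exon length instead, the shortest group had 15.8% higher and 30.7% lower. The longest had 29.2% higher and 22.8% lower. Span and exon length were not separated. The counting used no strand information, so reads of antisense genes and of the genes they overlap cannot be told apart.

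The stress program of ATF4 had the highest median log2 fold change of the lists in the plot of gene lists. Of 22 tested members, 16 rose, none fell and 6 did not pass the test, with a median log2 fold change of 1.61 against 0.00 over all tested genes. INHBE, a subunit of an activin hormone, was at 0.5, 1.01 and 0.438 CPM in the DMSO libraries and 20.8, 16.6 and 15.98 CPM in the afatinib libraries (log2 fold change 4.79, SE 0.26, adjusted p = 1.12e-20). CHAC1, which breaks down glutathione, was at 3.00, 4.75 and 2.89 CPM with DMSO and 82.0, 90.9 and 80.9 CPM with afatinib (log2 fold change 4.59, SE 0.11, adjusted p = 1.33e-34). SESN2, a leucine-binding inhibitor of mTORC1, was at 2.00, 3.74 and 2.37 CPM with DMSO and 29.8, 34.0 and 34.5 CPM with afatinib. In all 3 genes the lowest afatinib library lay several times above the highest DMSO library. TSC22D3, a leucine zipper protein known as GILZ (log2 fold change 3.61), and ADM2, a peptide hormone (3.44), also rose.

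The regulators of this program differed in kind. The eIF2 alpha kinases EIF2AK1 (HRI), EIF2AK2 (PKR), EIF2AK3 (PERK) and EIF2AK4 (GCN2), which lie upstream of ATF4, did not pass the test, with log2 fold changes from -0.33 to 0.11. All 6 tested transcription factors rose. ATF4 itself was at 1312, 1299 and 1289 CPM with DMSO and 2323, 2309 and 2264 CPM with afatinib (log2 fold change 0.82, SE 0.05, adjusted p = 9.05e-19). ATF5, a close relative also controlled through translation of its mRNA, was at 249, 244 and 248 CPM with DMSO and 1598, 1606 and 1617 CPM with afatinib (log2 fold change 2.701, SE 0.05, adjusted p = 4.04e-38). Per kilobase of exon, ATF5 went from 85.4 to 556 RPKM (CPM divided by exon length in kilobases), and ATF4 from 517 to 914 RPKM. DDIT3, the stress factor CHOP, rose from 4.50, 5.96 and 5.96 CPM to 46.4, 51.1 and 47.9 CPM. CEBPB (log2 fold change 2.47), ATF3 (1.84) and CEBPG (1.38), partners of ATF4 on DNA, completed the group.

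Promoters of these genes are shown because the letters TGATGNAA, an ATF4 composite element searched on both strands, occur in some of them. Capitals mark the match. The sequences are RefSeq windows of GRCh38.p14 upstream of the gene's start, 5′ to 3′ on the gene's strand, and cover chr15:40953232-40953299 for CHAC1, chr7:97872439-97872506 for ASNS (minus strand) and chr1:212565186-212565253 for ATF3.
CHAC1: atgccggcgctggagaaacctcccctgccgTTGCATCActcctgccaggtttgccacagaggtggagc
ASNS: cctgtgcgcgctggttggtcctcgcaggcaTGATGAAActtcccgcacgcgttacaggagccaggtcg
ATF3: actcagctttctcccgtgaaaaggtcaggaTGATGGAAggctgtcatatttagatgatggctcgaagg
The match ends 202 bases before the start in CHAC1, 61 in ASNS and 184 in ATF3. In the 300 bases around the start, 8 of 42 matched members of the ATF4, amino acid synthesis and amino acid transport lists (19.0%) held these letters, against 1.69% of the promoters of 10003 tested genes and 3.67% of all 27305 promoters in the table. Of the 42 matched members 31 rose, with or without the letters, and all 8 were among these 31. A match is a description of the letters and shows no binding.

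Amino acid supply rose with it. Of 15 tested amino acid transporters, 12 rose and 1 fell (median log2 fold change 1.09), and 8 of the 12 rose at least 2-fold. SLC7A11, the cystine carrier, was at 30.7, 30.6 and 38.4 CPM with DMSO and 182, 185 and 184 CPM with afatinib (log2 fold change 2.47, SE 0.08, adjusted p = 1.58e-29). SLC3A2, the heavy chain that both SLC7A11 and SLC7A5 need, was at 260.0, 281 and 237 CPM with DMSO and 1189.7, 1247 and 1145 CPM with afatinib (log2 fold change 2.20, SE 0.06, adjusted p = 2.18e-32). SLC7A5, the main leucine carrier, went from 884, 941 and 841 CPM to 2594, 2585 and 2559 CPM. Each of these carriers was clear of the DMSO range in all 3 afatinib libraries. SLC38A2 (log2 fold change 1.51), SLC1A4 (1.12) and SLC1A5 (1.10) rose as well. Of 16 tested genes of amino acid synthesis, 11 rose and 3 fell (median 0.47). CTH, which makes cysteine, went from 5.75, 5.55 and 6.75 CPM to 62.0, 62.8 and 54.8 CPM (log2 fold change 3.31, SE 0.12, adjusted p = 1.36e-27). GPT2 (log2 fold change 2.10), PSAT1 (2.01), ASNS (1.86), GOT1 (1.36) and PSPH (1.20), enzymes of alanine, serine, asparagine and aspartate synthesis, rose. SHMT2, the mitochondrial serine hydroxymethyltransferase, rose by less (0.41). Translational repressor EIF4EBP1, which binds the cap-binding factor eIF4E, went from 15.1, 18.9 and 13.1 CPM to 42.5, 45.3 and 42.0 CPM.

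Enzymes that charge tRNA were mostly higher in the cytosolic list and mostly lower in the mitochondrial list. Of 20 tested cytosolic tRNA synthetases, 12 rose and 8 fell, with a median of 0.59. WARS (tryptophan) was at 164, 159.9 and 162 CPM with DMSO and 481, 481 and 491 CPM with afatinib (log2 fold change 1.58, SE 0.05, adjusted p = 2.16e-28). GARS (glycine, log2 fold change 1.37), AARS (alanine, 1.11), MARS (methionine, 1.10), SARS (serine, 0.90) and IARS (isoleucine, 0.79) rose with it. FARSB (phenylalanine), the lowest of the list and named after its value was seen, fell by 0.65 on the log2 scale. Of 16 tested mitochondrial synthetases, none rose and 13 fell (median -0.41). VARS2 (valine) was at 40.3, 42.2 and 38.7 CPM with DMSO and 25.5, 26.6 and 25.6 CPM with afatinib (log2 fold change -0.64, SE 0.09, adjusted p = 1.53e-07). TARS2 (-0.62), FARS2 (-0.58), IARS2 (-0.58) and WARS2 (-0.55) were lower too. The 2 lists share no gene, and no test of the difference between them was made. Leaving out the libraries with keratin reads gave 11 cytosolic synthetases higher and 4 lower, and 7 mitochondrial synthetases lower.

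Genes of protein folding in the endoplasmic reticulum (ER) did not rise as a group. Of 26 tested members, 6 rose and 13 fell (median -0.22). The ER stress sensor ERN1 (IRE1, log2 fold change 0.71) and its target factor XBP1 were among the risers. XBP1 was at 81.9, 89.5 and 79.5 CPM with DMSO and 246, 253 and 243 CPM with afatinib (log2 fold change 1.57, SE 0.06, adjusted p = 6.07e-26). DNAJB9 (0.97) and HERPUD1 (0.71), which serve ER-associated degradation, rose. Of 17 tested chaperones of the list, which include DNAJB9, 12 fell and 2 rose. CALR was at 2030.0, 2024 and 1757 CPM with DMSO and 1246, 1265 and 1213 CPM with afatinib (log2 fold change -0.64, SE 0.06, adjusted p = 2.11e-13). HSP90B1 (-0.72) and MANF (-0.82) fell with it. The counts without the keratin libraries were 5 higher and 7 lower. The sensor and factor ATF6 did not pass the test (log2 fold change 0.20, adjusted p = 0.0561). Of 22 tested cytosolic heat shock chaperones, 3 rose and 17 fell (median -0.34). TCP1 (-0.71), CCT6A (-0.73), CCT5 (-0.67) and CCT3 (-0.57), subunits of the chaperonin that folds actin and tubulin, were all lower. HSPA8, the most abundant chaperone of the list by CPM, did not pass the test (-0.07, adjusted p = 0.298), and the heat shock factor HSF1 rose slightly (0.25). Leaving out the keratin libraries moved the median of these chaperones and 2 heat shock factors from -0.32 to -0.18.

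The oxidant defence list rose broadly. Of 29 tested genes, 22 rose and 3 fell (median 0.81), and 22 and 0 did so without the keratin libraries. All 4 tested regulators were higher: NFE2L2, which encodes NRF2, went from 91.4, 86.7 and 85.1 CPM to 155, 138 and 149 CPM (log2 fold change 0.75, SE 0.07, adjusted p = 1.82e-13). Its partner MAFG (log2 fold change 1.36), its competitor BACH1 (0.82) and its inhibitor KEAP1 (0.16) rose too. NQO1, a quinone reductase, was at 27.3, 29.5 and 29.8 CPM with DMSO and 117, 117 and 108 CPM with afatinib (log2 fold change 1.99, SE 0.08, adjusted p = 2.97e-26). OSGIN1, an oxidant-induced growth inhibitor, went from 2.25, 2.12 and 1.40 CPM to 25.3, 29.4 and 21.8 CPM (log2 fold change 3.72, SE 0.20, adjusted p = 3.03e-20). All 5 tested genes of NADPH supply rose, among them IDH1 (1.89). The 4 tested genes of iron and haem handling in this list rose at least 2-fold, among them BLVRB, which reduces biliverdin (2.37). The ferritin chains that store iron were prominent by read share. FTL was at 1519, 1535 and 1323 CPM with DMSO and 3892, 3971 and 3669.6 CPM with afatinib, the largest gain in CPM of any gene by the rule used. FTH1 was at 540.3, 693 and 591 CPM with DMSO and 2539, 2042 and 2250.4 CPM with afatinib (log2 fold change 1.91, SE 0.08, adjusted p = 8.27e-15). Both ferritin genes have many processed pseudogenes, and read pairs with more than 1 mapping place were left out, so their levels are uncertain. Of the other genes of iron handling, NCOA4, the ferritin receptor of autophagy (-0.30), IREB2 (-0.34) and ALAS1 (-0.33) fell. The letters TGACNNNGC of the antioxidant element occurred in 4 of 23 matched promoters of the list (17.4%), against 15.4% of tested promoters, so no promoter is printed.

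Lysosomal genes were mostly higher, by small amounts. Of 38 tested lysosomal hydrolases and their helpers, 26 rose and 1 fell (median 0.33), and of 40 genes of the lysosomal membrane and proton pump, 26 rose and 1 fell (median 0.36). NEU1, the lysosomal sialidase, was at 2.83, 4.34 and 2.80 CPM with DMSO and 13.3, 14.6 and 11.6 CPM with afatinib (log2 fold change 2.00, SE 0.17, adjusted p = 6.52e-14). CLCN7, a chloride and proton exchanger, went from 65.1, 77.4 and 76.7 CPM to 203, 189.7 and 189 CPM (log2 fold change 1.41, SE 0.08, adjusted p = 2.11e-19). HEXA (1.21), MANBA (1.16) and ASAH1 (1.09), which degrade glycolipids and glycans, rose. Of 6 tested genes of nutrient signalling on the lysosome, 5 rose and 1 fell, and 4 rose at least 2-fold: FNIP1 (log2 fold change 1.29), RRAGD (1.21), FLCN (1.14) and RRAGC (1.11). The factors TFEB (0.59, adjusted p = 5.21e-05) and TFE3 (0.55, adjusted p = 2.37e-10) rose, and their relative MITF was at or near 0 in every library. Of 34 tested autophagy genes, 13 rose, 6 fell and 15 did not pass the test (median 0.13), and the risers of at least 2-fold were cargo receptors and ATG8 proteins. SQSTM1 (p62) was at 115, 130.2 and 106 CPM with DMSO and 699.8, 723 and 647 CPM with afatinib (log2 fold change 2.56, SE 0.07, adjusted p = 1.39e-32). OPTN (2.14), MAP1LC3B (1.70) and CALCOCO2 (1.34) rose, and the mitophagy receptor BNIP3L fell (-0.67). With the keratin libraries left out, 8 autophagy genes rose and 1 fell.

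The lysosomal element TCACGTGA was found in 8 of 54 matched promoters of both lysosome lists (14.8%), against 1.87% of tested promoters. Of the 34 matched genes that rose, 4 held it. The other holders, among them GAA (log2 fold change -0.20) and GALNS (-0.11), did not rise by the test. LAMP1, which encodes an abundant lysosomal membrane protein and rose by 0.58 on the log2 scale, is shown as the named gene that holds it upstream of the start, with the match in capitals, at chr13:113297180-113297238.
LAMP1: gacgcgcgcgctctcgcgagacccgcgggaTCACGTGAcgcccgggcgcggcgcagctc

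Cholesterol synthesis and uptake genes were mostly higher. Of 27 tested genes of synthesis and uptake, 17 rose and 1 fell (median 0.51). INSIG1, which holds SREBP2 in the ER and is its target, went from 83.0, 81.7 and 83.0 CPM to 178, 178 and 164 CPM (log2 fold change 1.07, SE 0.06, adjusted p = 1.02e-20). MVK (1.22), MSMO1 (1.15), HMGCS1 (1.14) and DHCR7 (1.01), enzymes of the pathway, rose. The factor SREBF2 rose by 0.81 and SREBF1 by 0.28. Of 7 tested genes of sterol efflux and its control, 1 rose and 3 fell. MYLIP, a ubiquitin ligase driven by the oxysterol receptor LXR, went from 15.1, 18.3 and 16.7 CPM to 4.88, 4.92 and 5.22 CPM (log2 fold change -1.73, SE 0.14, adjusted p = 2.2e-14). Of 13 tested genes of fatty acid synthesis, 5 rose and 1 fell, or 9 and 1 with library size as the only scaling, with SCD at 0.60, and FASN did not pass the test (0.06, adjusted p = 0.464).

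Genes of the type I interferon list were mostly higher, and genes of the interferon gamma list mostly lower. Of 31 tested genes induced by type I interferon, 17 rose and 8 fell (median 1.00), and 13 rose at least 2-fold. IFIT2, which binds foreign RNA, was at 18.1, 18.3 and 22.0 CPM with DMSO and 138, 133 and 141 CPM with afatinib (log2 fold change 2.82, SE 0.09, adjusted p = 4.68e-30). OASL (1.86), IFIT1 (1.60), IFIT3 (1.53) and IFI35 (1.39) rose. Of the factors that mediate the response, IRF7 went from 7.003, 7.07 and 5.34 CPM to 21.6, 23.2 and 21.0 CPM. STAT2 (-0.33) fell, and IRF9 stayed below 1 CPM in every library and did not pass the test. BST2, the most abundant member by CPM, fell slightly (-0.26). Of 21 tested genes typical of interferon gamma, 5 rose and 12 fell (median -0.22). CXCL10, a chemokine for T cells, was at 35.4, 32.9 and 38.3 CPM with DMSO and 19.6, 21.1 and 19.4 CPM with afatinib (log2 fold change -0.83, SE 0.10, adjusted p = 4.79e-10). APOL3 (-1.21), PSMB8 (-0.83), GBP4 (-0.64) and the class II transactivator CIITA (-0.54) fell, and so did the factor IRF1 (-0.37). The risers of that list included WARS and APOL6 (0.96), and WARS is also a cytosolic tRNA synthetase. Fewer members of the gamma list passed the test without the keratin libraries, 4 higher and 7 lower. Of 18 tested genes of MHC class I presentation, 1 rose and 10 fell. Of 8 of MHC class II, 1 rose and 5 fell, and leaving out those libraries gave 2 risers and 5 fallers for class I and 1 and 2 for class II.

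The letters GAAANNGAA of the interferon response element were found in 15 of 20 matched promoters of the interferon-stimulated list (75.0%), against 6.57% of tested promoters. Of the 12 matched genes that rose, 10 held them. The 3 promoters below are examples from the members described above, IFIT1 and IFIT3, which rose, and BST2, which fell. Members with a larger change, such as IFIT5, also hold a match and are not printed. They cover chr10:89392478-89392559, chr10:89327812-89327914 and chr19:17405716-17405790 (minus strand), with capitals for the matched letters on either strand and overlapping matches joined.
IFIT1: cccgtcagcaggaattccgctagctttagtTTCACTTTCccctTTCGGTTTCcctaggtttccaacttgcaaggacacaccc
IFIT3: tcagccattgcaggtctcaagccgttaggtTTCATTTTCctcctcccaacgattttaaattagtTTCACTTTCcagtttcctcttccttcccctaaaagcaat
BST2: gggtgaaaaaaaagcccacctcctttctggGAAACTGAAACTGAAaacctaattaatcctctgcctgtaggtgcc

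**Figure D3:**
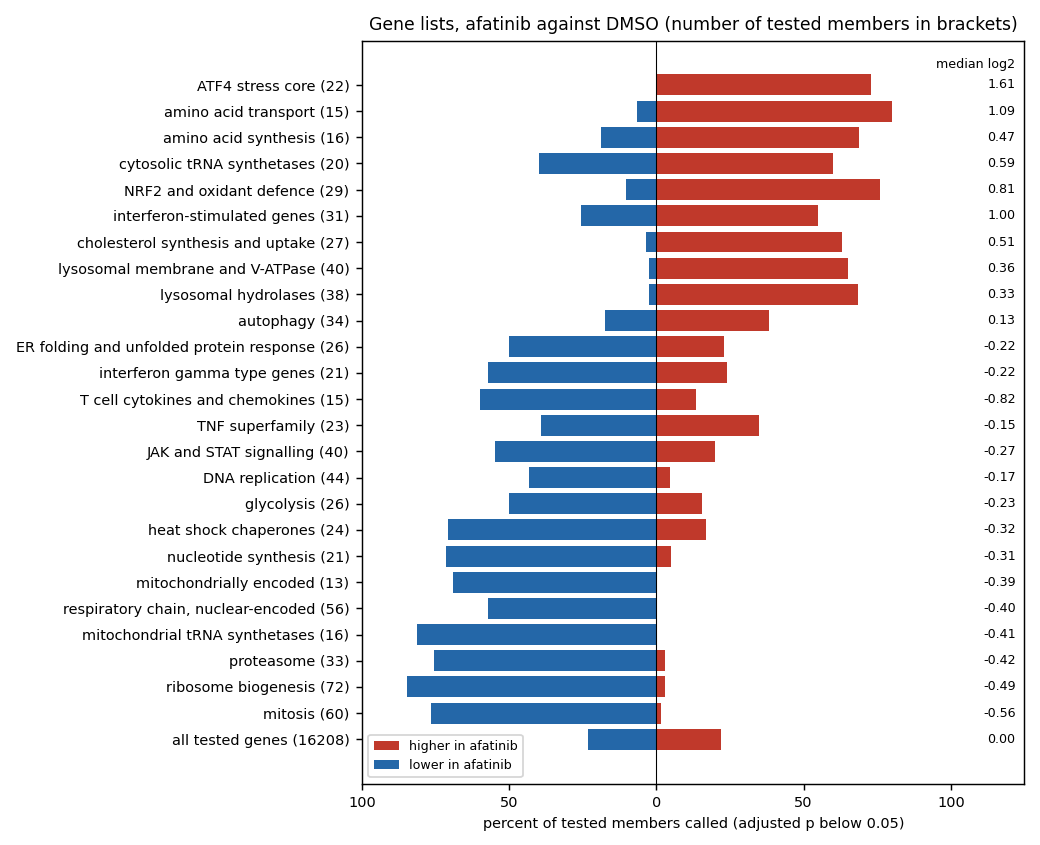
Percent of the tested members of each gene list called higher (red, to the right) or lower (blue, to the left) with afatinib, with the number tested in brackets and the median log2 fold change at the right edge. The bottom bar gives all 16208 tested genes, 22.0% higher and 23.3% lower, beside which the ATF4 list has no lower member and the mitosis list 46 of 60.

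Signalling genes below the kinases that afatinib can reach changed in part. Of 40 tested genes of the JAK and STAT pathway, 8 rose and 22 fell (median -0.27). Without a filter on low counts, 5 rose. Among 14 tested STAT targets, 11 fell and the other 3 rose, by at most 0.50 on the log2 scale. PIM2, a survival kinase induced by STAT5, was at 129, 131 and 128 CPM with DMSO and 55.9, 54.8 and 52.8 CPM with afatinib (log2 fold change -1.25, SE 0.06, adjusted p = 9.58e-22). OSM (-0.83) and BCL3 (-0.72) fell with it. IL7R, the receptor chain for interleukin-7, went from 33.8, 28.7 and 37.1 CPM to 8.20, 8.24 and 9.32 CPM (log2 fold change -1.95, SE 0.11, adjusted p = 1.25e-19). Of 7 tested STAT factors, 5 fell and 1 rose. STAT5A fell by 0.38, STAT6 fell by 0.35 and STAT3 fell by 0.19 on the log2 scale, and STAT5B did not pass the test. STAT4, which rose, was near or below the level of 3 counts in the DMSO libraries (0.25, 0.101 and 0.175 CPM) and at 1.01, 0.852 and 0.723 CPM with afatinib. IL6ST, the shared receptor chain gp130, rose (0.68).

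Immediate early genes are a fast read-out of MAP kinase signalling. Of 18 tested members, 4 rose and 5 fell, close to the 22.0% and 23.3% over all tested genes, or 4 and 3 without the keratin libraries. EGR1 was at 25.6, 21.2 and 18.7 CPM with DMSO and 4.15, 2.37 and 2.65 CPM with afatinib (log2 fold change -2.84, SE 0.19, adjusted p = 1.03e-16). JUNB was at 2019, 2160.0 and 1953 CPM with DMSO and 1011, 948 and 950.0 CPM with afatinib (log2 fold change -1.08, SE 0.05, adjusted p = 8.42e-22), whereas JUN rose from 315, 336 and 307 CPM to 689, 668 and 656 CPM (log2 fold change 1.07, SE 0.05, adjusted p = 2.26e-22). JUND rose (0.57), and FOS, FOSB, FOSL1 and FOSL2 did not pass the test. Of 28 tested genes of the MAP kinase cascade and its feedback, 7 were higher and 7 lower, again close to the share over all genes. Only 4 of the 28 were lower without afatinib library 1 or 3, without DMSO library 1, or with library size as the only scaling. The cascade itself gave 13 of the 28, of which 2 rose and 5 fell. Of the feedback genes, 4 of 5 Sprouty and SPRED genes rose and none fell. Of 8 phosphatases 2 fell and none rose, and of 2 ETS factors 1 rose. SPRED1 (1.55), SPRED3 (0.87) and SPRED2 (0.51), which restrain RAS, rose, and the phosphatases DUSP2 (-1.14) and DUSP4 (-0.52) fell. ETV5, an ETS factor that usually follows ERK activity, went from 2.00, 1.21 and 1.84 CPM to 4.15, 5.49 and 5.22 CPM. MYC fell from 639.7, 639 and 590.0 CPM to 493, 525 and 491 CPM (log2 fold change -0.31, SE 0.05, adjusted p = 3.47e-06). Of the PI3K genes, the inhibitor PIK3IP1 rose from 2.83, 2.12 and 2.80 CPM to 14.5, 14.4 and 12.7 CPM, and the regulatory subunit PIK3R1 fell (-0.60).

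Secreted T cell factors were mostly lower. Of 15 tested cytokines and chemokines, 9 fell and 2 rose (median -0.82), and 6 fell at least 2-fold. CCL22, a chemokine for CCR4-bearing T cells, was at 44.6, 51.6 and 44.2 CPM with DMSO and 2.21, 3.03 and 3.61 CPM with afatinib (log2 fold change -3.97, SE 0.16, adjusted p = 8.67e-26). IL9, a type 2 cytokine, was at 14.7, 16.4 and 19.8 CPM with DMSO and 3.32, 4.45 and 4.90 CPM with afatinib (log2 fold change -1.99, SE 0.13, adjusted p = 2.74e-17). IL13 went from 98.5, 99.4 and 88.8 CPM to 40.8, 44.2 and 40.9 CPM. Of these, CCL22 lost the largest share of its level. LIF (-0.82), a cytokine of the interleukin-6 family, fell from 888, 891 and 914 CPM to 516, 515 and 490.2 CPM. CXCL8, a neutrophil chemokine, rose (0.996). In the TNF superfamily, the lymphotoxin genes fell: LTA from 104, 109 and 101 CPM to 32.0, 35.5 and 27.8 CPM and LTB from 43.9, 49.4 and 37.3 CPM to 11.8, 14.9 and 12.3 CPM. Of the other ligands, TNFSF10 (TRAIL) fell (-0.73). Among the receptors, TNFRSF9 (4-1BB) rose from 13.2, 11.2 and 14.2 CPM to 59.1, 65.9 and 65.5 CPM (log2 fold change 2.30, SE 0.10, adjusted p = 8.43e-25), and TNFRSF4 (OX40) fell (-0.52). Across that family 8 of 23 tested genes rose and 9 fell.

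Genes of the T cell surface and of T cell identity changed in part. Of 23 tested genes of the T cell receptor and its proximal signalling, 5 rose and 7 fell. These shares were not far from the 22.0% higher and 23.3% lower over all tested genes. The median log2 fold change of the 23 was -0.06, and 0.02 without the keratin libraries. The kinase FYN rose (0.95), VAV1 (-1.01) and the phosphatase PTPN6 (-0.80) fell, and ZAP70 did not pass the test (-0.06, adjusted p = 0.444). Of 21 homing genes, 5 rose and 9 fell, but 8 rose and 6 fell when only library size was used for scaling, and 4 and 5 without the keratin libraries. CCR8, a skin-homing chemokine receptor, went from 7.67, 9.59 and 7.80 CPM to 2.95, 3.22 and 1.53 CPM. The integrin ITGAL (-0.75) and FUT7, which builds selectin ligands (-0.82), fell, and ITGAE (0.66) and CD44 (0.35) rose. CD96, a receptor of T and natural killer cells, rose (1.04). Of 32 tested lineage factors, 6 rose and 14 fell, among them BCL11B (-0.69), TOX (-0.69), PRDM1 (-0.54) and IKZF3 (-0.51). Scaled by library size alone, 11 of the lineage factors rose and 9 fell, and 4 and 6 did so without the keratin libraries. Leaving out afatinib library 1 or afatinib library 3 gave 9 fallers, and leaving out DMSO library 3, or the filter on low counts, gave 3 risers. RUNX2 rose (0.70), GATA3 fell slightly (-0.14), and RUNX3 and TCF7 did not pass the test.

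Genes of cell division were mostly lower, by less than 2-fold for most. Of 60 tested mitosis genes, 46 fell and 1 rose (median -0.56). PLK1, a mitotic kinase, was at 255, 281 and 241 CPM with DMSO and 138, 138 and 133 CPM with afatinib (log2 fold change -0.93, SE 0.06, adjusted p = 5.3e-17). CCNB1, the cyclin of mitotic entry, went from 69.2, 71.7 and 64.6 CPM to 31.3, 34.8 and 31.8 CPM (log2 fold change -1.07, SE 0.09, adjusted p = 3.35e-14). UBE2C (-1.01), KIF20A (-0.98), BUB1 (-0.95) and NUF2 (-0.91), genes of the spindle and of mitotic exit, fell, as did MKI67 (-0.59). The factor FOXM1, which drives many of them, did not pass the test (-0.03, adjusted p = 0.712), and MYBL2 fell slightly (-0.25). Of 44 tested replication genes, 19 fell and 2 rose (median -0.17), with TOP1 at -0.82 and FEN1 at -0.70. E2F1 (0.32), CDKN1A (0.44) and CDKN2D (0.55) rose, and CCNE1 (-0.65) and CDK2 (-0.40) fell. When the keratin libraries were left out, 37 mitosis genes and 6 replication genes fell.

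Genes of ribosome production were mostly lower. Of 72 tested genes, 61 fell and 2 rose (median -0.49), and of the 53 nucleolar members 49 fell and none rose. NCL, nucleolin, was at 1546, 1528 and 1483 CPM with DMSO and 807, 812 and 795 CPM with afatinib (log2 fold change -0.92, SE 0.05, adjusted p = 2.02e-20). GNL3 (-1.01), NOP16 (-1.004), LYAR (-0.91), NOP14 (-0.91) and NOP56 (-0.84) fell. Both risers were among the 19 genes of RNA polymerases I and III, with POLR3C at 0.65, named after its value was seen. Of 21 nucleotide synthesis genes, 15 fell and 1 rose (median -0.31), with PFAS, an enzyme of purine synthesis, at -0.71. Of 33 proteasome genes, 25 fell and 1 rose (median -0.42). The riser was NFE2L1, the factor that drives proteasome genes, at 719.7, 721 and 697 CPM with DMSO and 1993, 2044 and 2017 CPM with afatinib (log2 fold change 1.502, SE 0.05, adjusted p = 1.13e-28). PSMC4 (-0.64), PSMC3 (-0.59) and PSMB3 (-0.58), subunits of the particle, fell. Of these, 37 ribosome genes, 7 nucleotide genes and 8 proteasome genes fell without the keratin libraries.

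Genes of the respiratory chain and of glycolysis were more often lower than higher. Of all tested genes in the group with the highest DMSO level, 20.0% were higher and 49.7% lower. Of 56 nuclear-encoded respiratory chain genes, 32 fell and none rose (median -0.40), among them ATP5F1B (-0.61), UQCRFS1 (-0.62) and CYC1 (-0.45). Of 13 mitochondrially encoded mRNAs, 9 fell and none rose (median -0.39). MT-ND2, a subunit of complex I, was at 7538, 6797 and 9086 CPM with DMSO and 4252, 4167 and 4384 CPM with afatinib (log2 fold change -0.87, SE 0.09, adjusted p = 1.61e-08). MT-CO1 was at 26914, 26621 and 34686 CPM with DMSO and 27180.5, 26614 and 26899 CPM with afatinib, overlapped and did not pass the test. MT-RNR1, the small ribosomal RNA of mitochondria, had the largest loss: 5182, 4916 and 5609 CPM with DMSO and 1488, 1476 and 1544 CPM with afatinib (log2 fold change -1.80, SE 0.14, adjusted p = 2.34e-06). MT-RNR2, the large one, was at 11677, 10903 and 13635 CPM with DMSO and 8320.1, 8200.1 and 8672 CPM with afatinib (log2 fold change -0.52, SE 0.07, adjusted p = 2.71e-08). Both RNAs together made up 1.66% ± 0.158 of the counts with DMSO and 1.02% ± 0.0329 with afatinib (SD, n = 3 each; exact permutation test, two-sided, p = 0.1, the smallest possible). DMSO library 3 was the highest DMSO library for each of these 4 transcripts, and without it 7 of the 13 mRNAs fell and 1 rose, with a median of -0.26. Of the nuclear-encoded genes, 13 fell without the keratin libraries. In glycolysis, 13 of 26 genes fell and 4 rose (median -0.23). LDHA, lactate dehydrogenase, was at 782, 709 and 742 CPM with DMSO and 369, 348 and 372 CPM with afatinib (log2 fold change -1.03, SE 0.06, adjusted p = 3.79e-20). PGAM1 (-0.92), TPI1 (-0.71) and PFKFB4 (-1.34) fell, the glucose carrier SLC2A3 rose (0.66), and GAPDH did not pass the test (0.03, adjusted p = 0.717). Actin genes lost many reads: ACTB went from 6386, 6759.6 and 6246 CPM to 3433, 3536 and 3341 CPM.

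Survival and death genes moved in both directions. GSDME, a pore-forming gasdermin cut by caspase-3, was at 18.3, 18.7 and 18.7 CPM with DMSO and 3.32, 2.37 and 2.57 CPM with afatinib (log2 fold change -2.75, SE 0.20, adjusted p = 1.91e-16). GSDMB (-0.90) and the inhibitor of apoptosis BIRC3 (-0.66) fell, and FAS (0.61), TNFRSF10B (0.46) and TNFRSF1A (0.82) rose. Of 28 tested death genes 11 rose and 8 fell. In the BCL2 family, BCL2 rose from 19.4, 17.4 and 17.96 CPM to 37.3, 38.9 and 38.1 CPM (log2 fold change 1.06, SE 0.10, adjusted p = 1.2e-12). BCL2L1 (-0.44) and MCL1 (-0.25), both protective, fell, and so did BMF (-0.89), a killer member, while PMAIP1 (NOXA) rose (0.40). GADD45A, a gene of growth arrest and DNA damage, rose by 1.40 on the log2 scale, and the ubiquitin ligase MDM2 did not pass the test (-0.01, adjusted p = 0.904).

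**Figure D4:**
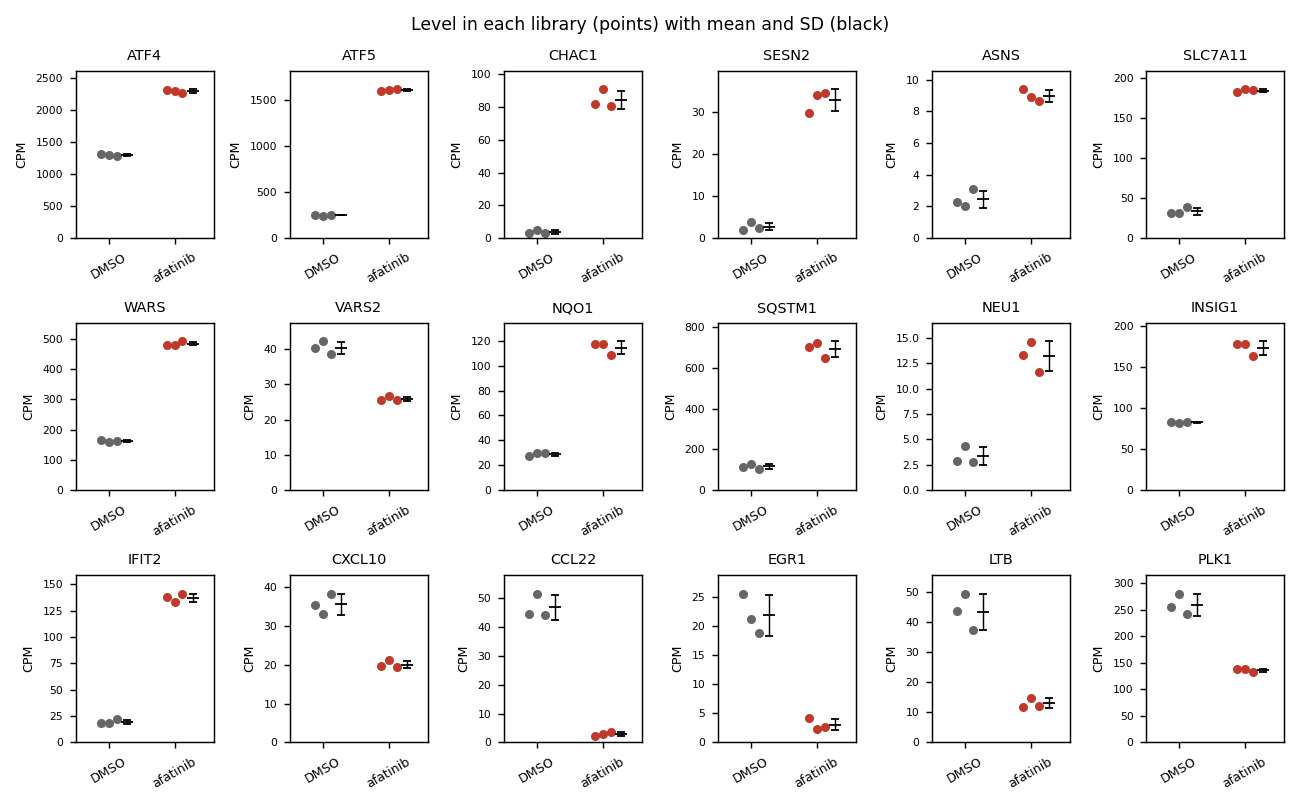
Level in CPM (vertical axis, linear from 0, own scale per panel) of 18 genes in each of the 3 DMSO (grey) and 3 afatinib libraries (red), with the mean and SD in black. The groups do not overlap in any panel, from the ATF4 targets and NRF2, lysosome, sterol and interferon genes that rose to CCL22, EGR1, LTB and PLK1 that fell.

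Several of the largest changes fell outside these lists. KLHDC7B, a kelch domain protein, was at 6.75, 6.46 and 8.32 CPM with DMSO and 127, 133 and 132 CPM with afatinib (log2 fold change 4.18, SE 0.10, adjusted p = 2.03e-34). ANGPT4, an angiopoietin (4.62), BEST1, an anion channel (4.04), HYAL4, a hyaluronidase family member (3.99), MUC5B, a secreted mucin (3.92), and the noncoding LINC01138 (3.55) rose from at most 2.02 CPM in any DMSO library. Such folds from low levels rest on few reads. Among the losses, ZBTB10, a zinc finger repressor, went from 54.9, 46.7 and 55.5 CPM to 11.6, 10.4 and 13.3 CPM (log2 fold change -2.15, SE 0.13, adjusted p = 1.24e-18). MEX3A, an RNA-binding protein (-1.82), RCN1, an ER calcium binder (-1.78), and CA11 (-1.77) also fell. HNRNPA1P21 (-2.08) is a pseudogene of HNRNPA1, and its value is uncertain because near-identical copies share reads. NEAT1, the scaffold RNA of paraspeckles, was at 936, 945 and 1435 CPM with DMSO and 3052, 2616 and 2783 CPM with afatinib (log2 fold change 1.35, SE 0.17, adjusted p = 0.0002). DMSO library 3 was the highest DMSO library for NEAT1 and still below every afatinib library. AHNAK, a giant scaffold protein, rose from 1632, 1558 and 2033 CPM to 2574, 2749 and 3025 CPM.

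A direct comparison with romidepsin showed where the afatinib profile differed from that of the other drug. Afatinib was higher than romidepsin for 5256 genes (32.4%) and lower for 5220 (32.2%). Both drugs were compared with the same DMSO libraries, so only the direct difference is tested here. IL9 had 3.32, 4.45 and 4.90 CPM with afatinib and 347, 325 and 351 CPM with romidepsin (log2 difference -6.32, SE 0.10, adjusted p = 5.75e-43). FAM43A, at 424, 393 and 437 CPM with romidepsin, was at 8.57, 6.34 and 8.83 CPM with afatinib (log2 difference -5.71, SE 0.11, adjusted p = 2.2e-29), where it overlapped the DMSO libraries. BMF (log2 difference -3.87), MAP3K20-AS1 (-4.16), FRG2C (-3.84) and NDRG1 (-3.69) were lower with afatinib too. In the other direction, KLHDC7B had 127, 133 and 132 CPM with afatinib and 2.32, 2.64 and 2.12 CPM with romidepsin (log2 difference 5.80, SE 0.13, adjusted p = 1.48e-37). ANGPT4 (6.13), INHBE (5.55) and HYAL4 (5.15) were higher with afatinib, from levels under 2 CPM with romidepsin. OR7E83P (5.15) and MTRNR2L10 (5.26), the first an olfactory receptor pseudogene and the second a nuclear copy related to MT-RNR2, have near-identical relatives, so their values are uncertain.

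The regulators and targets of the main programs differed between both drugs as well. ATF5 had 1598, 1606 and 1617 CPM with afatinib and 86.0, 92.8 and 89.1 CPM with romidepsin (log2 difference 4.17, SE 0.06, adjusted p = 4.48e-45). XBP1 was higher with afatinib (log2 difference 1.76), and so were ATF4 (1.33), SLC7A11 (2.58), NQO1 (2.35) and WARS (1.72). NEU1 was lower with afatinib than with romidepsin (-1.50), and SQSTM1 was higher (1.78). For MAP1LC3B the drugs did not differ by the test (log2 difference -0.02, SE 0.06, adjusted p = 0.748). PIM2 (-3.22), IL7R (-3.09) and EGR1 (-3.42) were lower with afatinib than with romidepsin. CD2 (0.93), CD247 (1.59), ZAP70 (1.75) and LIF (2.09) were higher with afatinib than with romidepsin. CDKN1A, at 403, 412 and 395 CPM with afatinib, was at 1319, 1292 and 1238 CPM with romidepsin (log2 difference -1.67, SE 0.05, adjusted p = 1.8e-30).

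**Figure D5:**
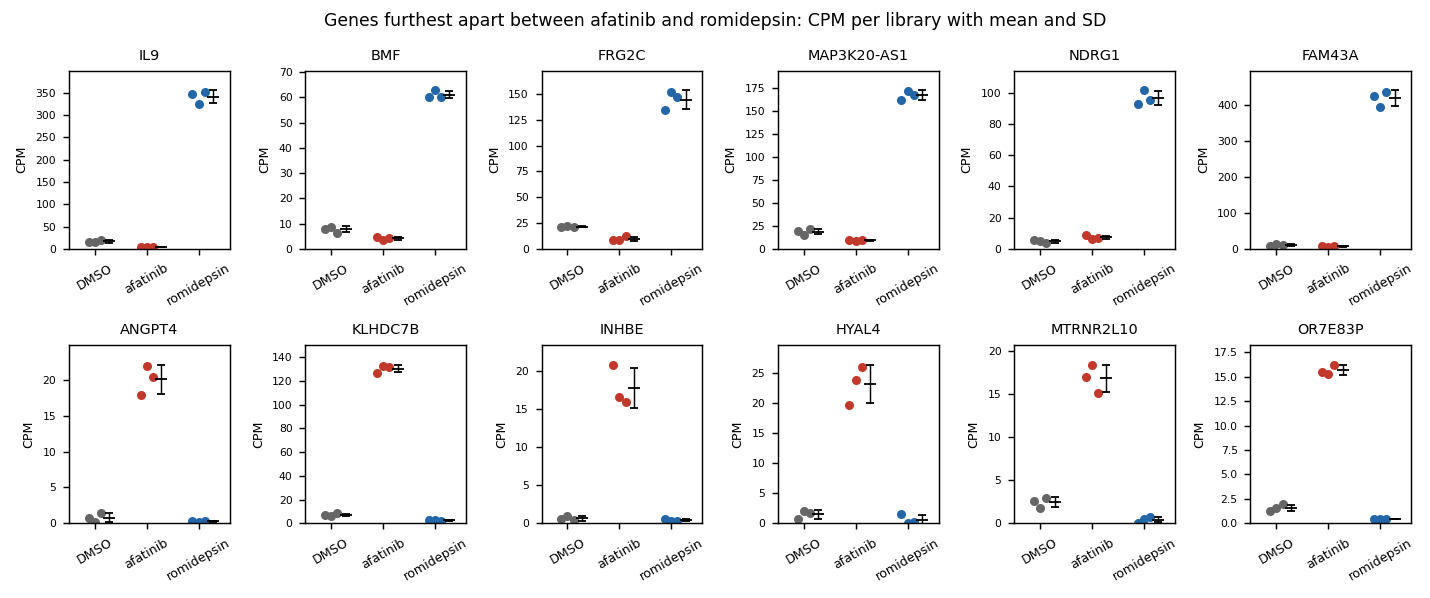
Level in CPM (vertical axis, linear from 0, own scale per panel) of the 12 genes furthest apart between both drugs in the 3 DMSO (grey), 3 afatinib (red) and 3 romidepsin libraries (blue), with mean and SD in black. IL9, BMF, FRG2C, MAP3K20-AS1, NDRG1 and FAM43A are highest with romidepsin, and the 6 genes of the lower row are highest with afatinib.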

How the data were processed

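RNA from 12 MyLa libraries was sequenced as read pairs, 3 libraries per treatment, after 24 h. Per the file headers, the authors counted read pairs per gene name with featureCounts and GENCODE 31, with no strand option and with multi-mapping reads left out. The deposited counts are whole numbers and not scaled. STAR 2.7.9a, featureCounts 2.0.0, DESeq2 1.38.1 and the build GRCh38.p12 come from the submitters' processing notes. A second deposited table was not used: each count had 1 code there, and the codes followed the counts sorted as text.

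Libraries were grouped by label. Genes were kept by filterByExpr and scaled by TMM factors, which the CPM values include, except the summed marker levels. RPKM values are CPM divided by the exon length in kilobases that the file gives. The test was edgeR 4.0.16 (glmQLFit, robust, and glmQLFTest) in R 4.3.3, two-sided, over all 12 libraries with 4 group means, and Benjamini-Hochberg adjustment over 16208 genes with a threshold of 0.05. SE is the log2 fold change divided by the root of F. The biological coefficient of variation was 6.13%. A level of 3 counts is 0.241 to 0.303 CPM in the 6 libraries. The script was tested on simulated data.

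The members and lists were chosen with earlier results of these data known. Genes were named by these rules: the largest fold changes and the largest CPM differences among called genes with at least 5 CPM and no overlap, the largest changes and the most abundant member of each list, the largest differences from romidepsin, and all drug targets, markers and regulators. Some genes that these rules name are not reported here. The labels do not say that replicate numbers pair the samples, so the test has no block. Gene types came from GENCODE 29 by name (97.8% of tested genes matched). Promoters came from RefSeq, GRCh38.p14, matched by symbol or older symbol. Alternatives were other scalings, filters, DESeq2 1.42.0, the 6 libraries alone, a replicate block, each library left out, and the 4 keratin libraries left out.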

Additional observations from a re-analysis of the deposited data

How the results depend on the processing

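Leaving out the 4 libraries with most KRT5 reads, which keeps 1 DMSO library assumed to vary like the others, reduced the genes called against DMSO to 2164 higher and 1998 lower, of which 2047 and 1889 were among those called with all libraries; fewer samples were tested. With a replicate block the counts were 3513 higher and 3710 lower. The labels do not say that the numbers pair the samples. Same-numbered afatinib and DMSO libraries deviated from their group means with correlations of -0.005, 0.095 and 0.089. Among DMSO libraries, afatinib libraries 2 and 3 correlated best with their own number and afatinib library 1 did not. With 3 libraries per group, these values cannot decide whether the samples were paired. DESeq2 called 3226 higher and 3590 lower, and library size as the only scaling 4606 and 2803. Leaving out 1 library at a time gave 3126 to 3466 higher and 3185 to 3571 lower genes, 968 to 1172 at least 2-fold higher and 368 to 397 at least 2-fold lower, and against romidepsin 4910 to 5027 higher and 4991 to 5021 lower. No named gene past the threshold changed direction under any alternative run. Of 460 named genes, 64 changed from called to not called without the keratin libraries, 21 with library size as the only scaling and at most 22 under any other alternative. The medians of 54 lists with at least 5 tested genes kept their sign in 43 lists with library size as the only scaling, in 50 without the keratin libraries, and in 49 to 54 under the others. Depth limits genes near 3 counts, such as EGFR.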

Other observations

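Gene families grouped by symbol, chosen after the values were seen, were counted as well. Of 82 cytosolic ribosomal protein genes, 54 were lower and 1 higher (median log2 fold change -0.25), and none moved by 2-fold. Of 75 mitochondrial ribosomal protein genes, 45 were lower and 3 higher (median -0.31). Of 78 genes whose symbol starts with EIF, 32 were lower and 9 higher (median -0.21). They hold translation initiation factors together with the eIF2 alpha kinases and EIF4EBP1. Of 248 zinc finger genes named ZNF, 67 were higher and 34 lower (median 0.09). Of 42 clustered histone genes, 2 were higher and 7 lower (median -0.03). Of 33 small nucleolar RNA genes, 1 was higher and 7 lower (median -0.45). Of 21 mitochondrial tRNA genes that passed the filter, 11 were lower and none higher. Over all tested genes, 22.0% were higher and 23.3% lower, and in the group with the highest DMSO level 20.0% and 49.7%.

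Secreted growth factors of the TGF-beta family diverged. INHBA, the activin A subunit, went from 12.3, 15.7 and 13.6 CPM with DMSO to 5.80, 7.01 and 5.22 CPM with afatinib (log2 fold change -1.20, SE 0.16, adjusted p = 3.07e-08), opposite to its relative INHBE. TGFB1 (log2 fold change -0.49) and GDF11 (-0.70) fell, and the coreceptor ENG rose (1.02). In the list of 31 tested genes of this pathway, 13 rose and 6 fell.

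Collagen genes usually found in fibroblasts were counted in every library: COL1A1 went from 109, 113 and 136 CPM to 54.1, 54.8 and 54.0 CPM (log2 fold change -1.14, SE 0.08, adjusted p = 5.52e-16). COL3A1 went from 64.1, 62.0 and 63.2 CPM to 43.4, 46.3 and 45.2 CPM (log2 fold change -0.49, SE 0.08, adjusted p = 3.86e-06). The other 3 fibroblast markers searched were COL1A2, DCN and LUM, and 2 of the 5 had no read in the 6 libraries.

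VEGFA, the vascular growth factor, rose from 85.7, 90.2 and 94.5 CPM to 162, 155 and 163 CPM (log2 fold change 0.83, SE 0.06, adjusted p = 1.59e-15). Of the clock genes, NR1D1 fell (-0.70) and its relative NR1D2 rose (0.66). HDAC11 (0.97) and HDAC4 (0.91), which encode histone deacetylases, rose, and HDAC3 (-0.56) and HDAC7 (-0.54) fell.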
